A study of Mus musculus with 14 samples.

Results

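The 39 genes described here run the cell division cycle and the copying of DNA, and were chosen by name as rows of a deposited expression table of mouse kidney cortex. All 39 were found, each in exactly 1 row, among 22007 gene IDs. RNA was sequenced from 14 libraries of C57BL/6 mice in 4 groups. TRACK-VAD mice (n = 4) carried the GGT-HIF1A_M3 transgene, a form of HIF1A that the series describes as constitutively active, placed behind the GGT promoter, and ate a vitamin A deficient (VAD) diet. TRACK mice (n = 4) carried the same transgene and ate regular chow with sufficient vitamin A. WT-VAD mice (n = 3) and WT mice (n = 3) were wild type on the deficient diet and on chow. Mice started on the diets 2 weeks after weaning, and their kidneys were collected after 24 weeks. The labels call the libraries biological replicates from separate mice.

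Cyclins switch on the cyclin-dependent kinases (CDKs) that drive a cell from one phase to the next. D cyclins with Cdk4 and Cdk6 act in G1, E cyclins with Cdk2 start S phase, the MCM helicase opens the DNA, and A and B cyclins with Cdk1 take the cell into mitosis. Most tubule cells of a healthy adult kidney are out of the cycle and divide rarely, and they re-enter it after injury.

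The values are FPKM, which are scaled for transcript length and library size, and each library was divided here by a factor that sets its middle genes level with the other libraries (0.897 to 1.18). The number of reads behind a value is unknown. Defining markers of proximal tubule were abundant in all 14 libraries (8 markers summed to 722 scaled FPKM or more in each library), as the tissue label says. TRACK-VAD libraries were less alike than those of the other groups: the mean correlation of a library with the rest of its group was 0.967 for TRACK-VAD 2 and 0.974 to 0.979 for TRACK-VAD 1, 3 and 4, against 0.989 to 0.992 for all others. TRACK-VAD 2 also had the highest sum of 6 injured tubule markers, 8255 scaled FPKM, where the other 13 libraries had 298 to 1819. Lane 6 held TRACK-VAD 4 and the 3 WT-VAD libraries, and lane 5 held the other 10. Diet in wild type mice and lane therefore cannot be told apart. Genotype on the deficient diet is also largely tied to lane, since only TRACK-VAD 4 shared the lane of WT-VAD. The average over diets and the difference between the diets rest in part on that comparison.

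Kidney cortex held much RNA for the G1 machinery and little for mitosis. Of the 39 genes, 20 averaged at least 1 scaled FPKM in every group, 6 averaged under 1 in 1 to 3 groups, and 13 averaged under 1 in all 4 groups. The 13 were Ccne1, Ccne2, Ccna2, Ccnb1, Aurka, Aurkb, Plk1, Bub1, Bub1b, Ube2c, Kif11, Tpx2 and Mki67. The 6 in between were E2f1, under 1 in WT, Ccnb2, Cdk1 and Cdc20, under 1 in WT-VAD and WT, and Birc5 and Top2a, under 1 in TRACK-VAD, WT-VAD and WT. The 3 highest levels belonged to G1 genes, Ccnd3, Cdk4 and Ccnd1, and the lowest to Bub1, which was listed at 0 in WT-VAD 3 and WT 1.

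**Figure D1:**
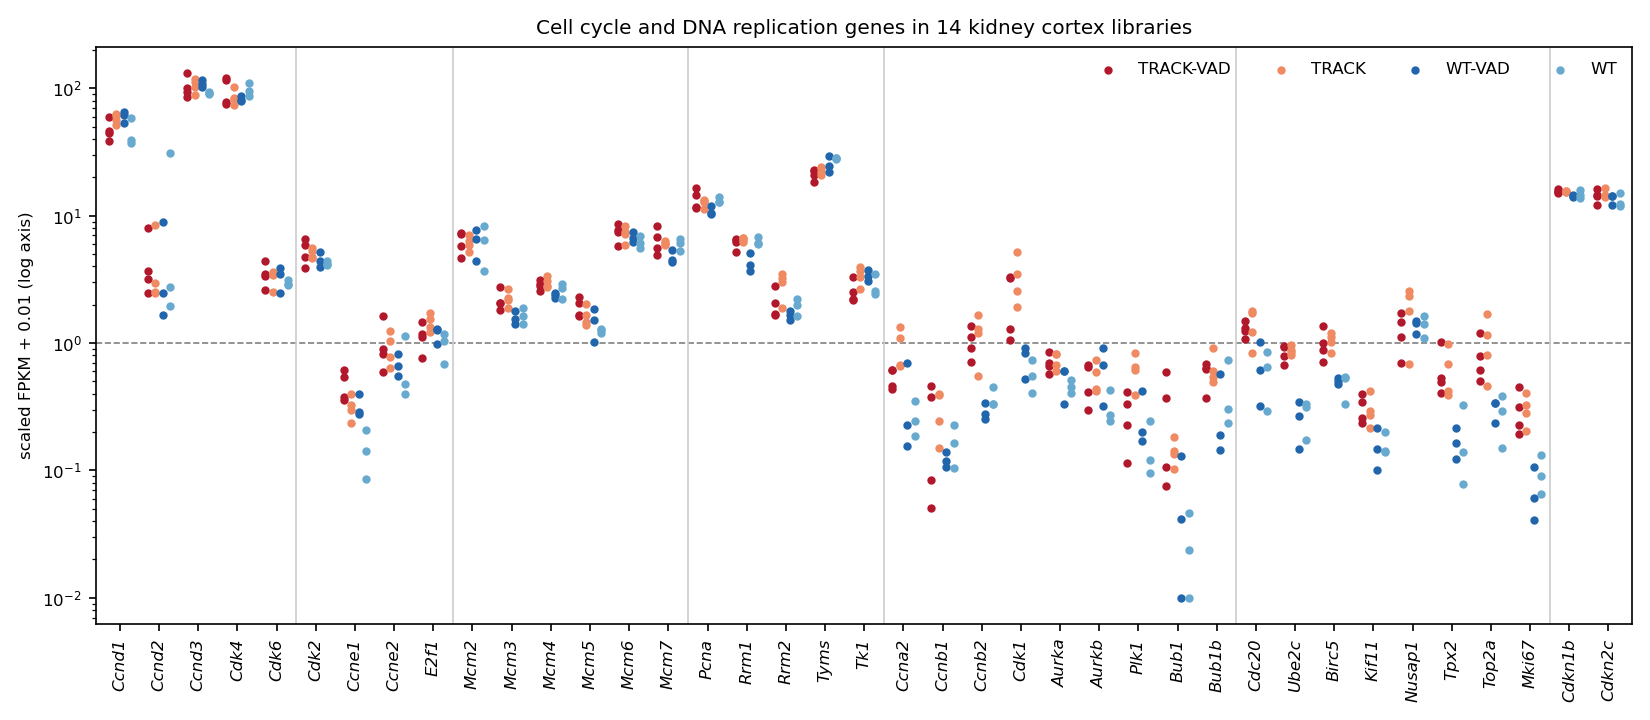
Scaled FPKM + 0.01 on a log axis for the 39 genes in 14 libraries, 1 point per library, coloured by group; thin vertical lines part the role groups and the dashed line marks 1 FPKM. The D cyclins, Cdk4 and the 2 CDK inhibitors stand at or above 1 FPKM in every library, while most mitotic genes lie under the line in the WT-VAD and WT libraries.

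Most calls between genotypes fell on genes of mitosis, and these were higher in the transgenic cortex. On the deficient diet not all mitotic genes leaned that way, with Aurkb and Nusap1 below 0 and Plk1 near 0, none of them called by limma. The test was limma on log2(scaled FPKM + pseudocount) with all 14 libraries and Benjamini-Hochberg adjustment over all genes, and a gene was called at an adjusted p of 0.05 or less. With genes of at least 1 FPKM in 3 libraries and a pseudocount of 1, 27 of the 39 could be tested. In TRACK over WT 5 of the 27 rose and 0 fell, where 8.81% of all 12251 genes rose and 8.2% fell. The 5 were Cdk1, Ccnb2, Top2a, Cdc20 and Birc5. In TRACK-VAD over WT-VAD 3 of the 27 rose and 0 fell (Ccnb2, Birc5 and Rrm1), where 11.3% of all genes rose and 10.8% fell, so the share of risers was close to that of the whole table. Several mitotic genes reached 1 FPKM only in transgenic libraries, so the counts over the tested genes support nothing.

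All 39 genes entered a second fit with a filter of 0.1 FPKM in 3 libraries and a pseudocount of 0.1. Among the wild type libraries Mki67 reached 0.1 only in WT 2 (0.123 scaled FPKM) and Bub1 only in WT-VAD 2 (0.121). Both passed this filter through transgenic libraries, so their part in any count at it supports nothing. In that fit 11 of 39 rose in TRACK over WT and 0 fell, where 9.22% of 15178 genes rose and 6.48% fell. They were Cdk1, Plk1, Top2a, Ccna2, Ube2c, Tpx2, Ccnb2, Cdc20, Mki67, Birc5 and Ccne1. In TRACK-VAD over WT-VAD 7 of 39 rose and 0 fell, where 11.4% of genes rose and 8.51% fell. They were Ccnb2, Ube2c, Tpx2, Cdk1, Mki67, Birc5 and Rrm1. The calls had 6 genes in common, 6 of the 11 on chow and 6 of the 7 on the deficient diet. The median difference of the 39 genes was 0.51 on chow and 0.39 on the deficient diet, beside 0.05 and 0.03 over all genes. With lane as a term, 10 of the 11 calls on chow were left. On the deficient diet that term sets TRACK-VAD 4 alone against the WT-VAD libraries, so it cannot part lane from that 1 library. The differences were then 1.94 for Ccnb2, 2.13 for Tpx2, 1.36 for Mki67, 0.53 for Rrm1 and 0.47 for Cdk1. A log2 difference on this scale understates the change of a gene with low values.

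**Figure D2:**
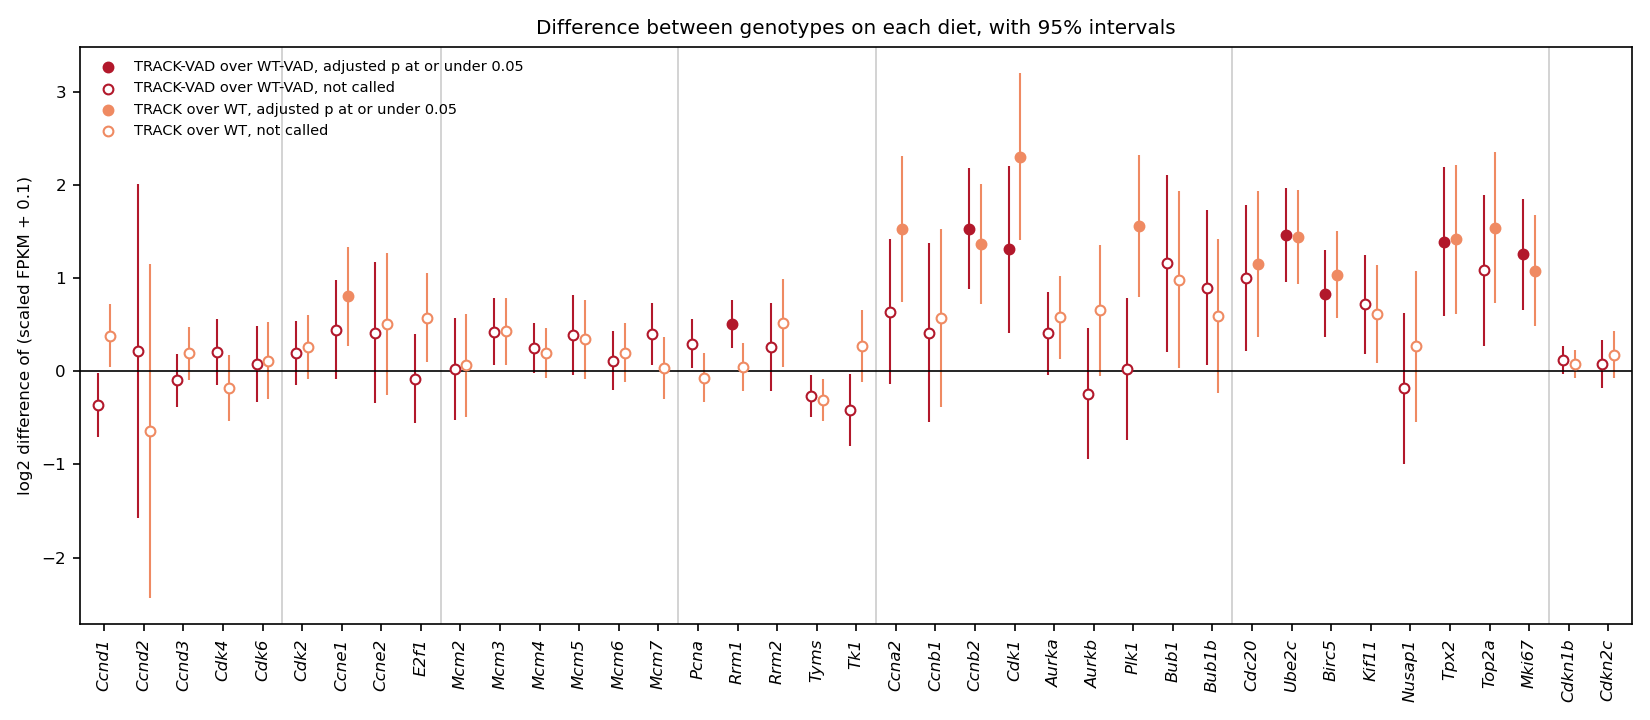
Log2 difference of (scaled FPKM + 0.1) with its 95% interval for each of the 39 genes, TRACK-VAD over WT-VAD in dark red and TRACK over WT in orange; filled points were called by limma at an adjusted p of 0.05 or less. The filled points lie above 0 and mostly among the mitotic genes on the right, and points of the G1 and MCM groups are open.

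With the genotype difference averaged over both diets, 17 of 39 genes rose and 1 fell at the 0.1 FPKM filter, where 18.9% of all genes rose and 14.2% fell. The risers included 7 of the 9 mitotic cyclins and kinases (all but Ccnb1 and Aurkb) and 7 of the 8 genes of spindle, chromosome and mitotic exit (all but Nusap1). Bub1 and Mki67, which passed this filter through transgenic libraries, are among them, and their part in these counts supports nothing. The other 3 were Ccne1, Mcm3 and Rrm1, and the gene that fell was Tyms. None of the 5 genes of the G1 group and neither CDK inhibitor was called in that average, with 0 of 5 and 0 of 2 also at an unadjusted p of 0.05 or less. With the 1 FPKM filter, 7 of 27 rose and 1 fell, where 18% of genes rose and 17.6% fell. Among these risers, Cdk1, Ccnb2, Cdc20, Birc5 and Top2a reached 1 FPKM before scaling only in transgenic libraries. The count at this filter therefore supports nothing.

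The authors' deposited table, which rests on counts, called more of the genes. It listed 18 of 39 as higher and 1 (Tyms) as lower in TRACK over WT, where 11.8% of its genes were higher and 12.1% lower. In TRACK-VAD over WT-VAD it listed 17 of 39 as higher and 1 (Tyms) as lower, where 14.7% were higher and 14% lower. The mitotic genes had low counts in the authors' deposited table, with mean normalized counts of 4.75 for Bub1, 6.52 for Ccnb1, 38.0 for Cdk1 and 67.6 for Mki67, beside 3698 for Ccnd1.

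Cdk1, the kinase that takes cells into mitosis, lies at chr10:69336635-69352938 on the minus strand (coordinates as in the deposited table, whose loci match GENCODE vM21 on GRCm38). It stood at 1.89, 5.21, 3.48 and 2.55 scaled FPKM in TRACK, against 0.399, 0.726 and 0.539 in WT. It stood at 3.28, 3.24, 1.27 and 1.05 scaled FPKM in TRACK-VAD, against 0.908, 0.509 and 0.832 in WT-VAD. Every transgenic library lay above every wild type library, and TRACK-VAD 3 and 4 lay nearest to them. The log2 difference at the 0.1 FPKM filter was 2.30 ± 0.42 (SE) in TRACK over WT (limma, adjusted p = 0.00269), and in TRACK-VAD over WT-VAD it was 1.31 ± 0.42 (adjusted p = 0.0408). At the 1 FPKM filter it was 1.41 ± 0.29 (adjusted p = 0.00531) and 0.80 ± 0.29 (adjusted p = 0.0598). The chow call was kept with each library left out. With lane as a term, which sets TRACK-VAD 4 alone against WT-VAD, the deficient diet difference was 0.47. On the deficient diet the call was lost in 10 of 19 alternatives. Left out singly, TRACK-VAD 1 (1.07), TRACK-VAD 2 (1.08), WT-VAD 1 (1.45), WT-VAD 2 (1.09), WT-VAD 3 (1.39), TRACK 3, TRACK 4 and WT 3 (1.31 each) each ended it. In the authors' deposited table Cdk1 was listed as higher in TRACK-VAD over WT-VAD (1.33, adjusted p = 1.76e-05). The difference between the diets was not called for Cdk1 or for any of the 39 genes.

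Ccnb2, a B cyclin that activates Cdk1 (chr9:70407689-70421554, minus strand), differed alike on both diets. It had 0.541, 1.28, 1.64 and 1.19 scaled FPKM in TRACK, against 0.324, 0.443 and 0.324 in WT, and 1.11, 0.908, 0.703 and 1.35 in TRACK-VAD, against 0.244, 0.268 and 0.326 in WT-VAD. All 8 transgenic libraries lay above all 6 wild type libraries. The log2 difference at the 0.1 FPKM filter was 1.37 ± 0.30 in TRACK over WT (limma, adjusted p = 0.00849) and 1.53 ± 0.30 in TRACK-VAD over WT-VAD (adjusted p = 0.00463). At the 1 FPKM filter it was 0.64 ± 0.16 (adjusted p = 0.0160) and 0.65 ± 0.16 (adjusted p = 0.0141), and the call on chow was lost without WT 1 or without WT 3 (0.62 each). A named pseudogene, Ccnb2-ps, exists in the annotation, and how reads shared with it were counted is not given in the sources used here.

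Ccna2, the A cyclin of S phase and G2, stood at 0.653, 1.08, 1.34 and 0.662 scaled FPKM in TRACK, against 0.175, 0.341 and 0.236 in WT. In TRACK-VAD it had 0.423, 0.607, 0.446 and 0.608, against 0.146, 0.218 and 0.686 in WT-VAD. The chow groups did not overlap, whereas WT-VAD 3 exceeded all TRACK-VAD libraries. The gene rose in TRACK over WT (1.53 ± 0.36 at the 0.1 FPKM filter, limma adjusted p = 0.0128) and was not called in TRACK-VAD over WT-VAD (0.64 ± 0.36, adjusted p = 0.228). Without WT 1 (1.37) or WT 3 (1.51) the call on chow was lost. Unlike limma, the authors' deposited table listed Ccna2 as higher in TRACK-VAD over WT-VAD (0.99, adjusted p = 0.00392). Its locus overlaps Exosc9 on the opposite strand, and whether counting used strand is not stated.

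Plk1, a kinase of mitotic entry and spindle assembly, had 0.384, 0.643, 0.821 and 0.609 scaled FPKM in TRACK, against 0.0853, 0.235 and 0.112 in WT. On the deficient diet it had 0.323, 0.218, 0.105 and 0.406 in TRACK-VAD, against 0.412, 0.190 and 0.160 in WT-VAD. Thus the chow groups were apart and the deficient diet groups overlapped. The log2 difference in TRACK over WT was 1.56 ± 0.35 (limma, adjusted p = 0.0103), and in TRACK-VAD over WT-VAD 0.02 ± 0.35 (adjusted p = 0.970). The difference between these differences, -1.54 ± 0.50, was not called (adjusted p = 0.541). Without WT 1 the call on chow was lost (1.39). In the average over diets Plk1 rose by 0.79 ± 0.25 (adjusted p = 0.0266), a call lost in 6 of 17 alternatives, among them without WT 1 (0.70), WT 3 (0.75), TRACK 3 (0.72), WT-VAD 2 (0.74) or WT-VAD 3 (0.70). The authors' deposited table listed Plk1 as higher on chow (1.21, adjusted p = 0.00101). On the deficient diet that table gave 0.56, which was not called (adjusted p = 0.171).

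The remaining mitotic kinases and B1 cyclin were at low levels, and limma called none on a single diet. Aurka, the kinase of spindle poles, averaged 0.720 ± 0.104 scaled FPKM in TRACK, against 0.446 ± 0.0514 in WT, and 0.687 ± 0.117 in TRACK-VAD, against 0.503 ± 0.154 in WT-VAD (SD, n = 4 transgenic and 3 wild type libraries a diet). Aurkb, the kinase of chromosome attachment, averaged 0.537 ± 0.148 in TRACK, against 0.305 ± 0.0984 in WT, and 0.496 ± 0.179 in TRACK-VAD, against 0.623 ± 0.296 in WT-VAD. Bub1b, of the spindle checkpoint, averaged 0.629 ± 0.190 in TRACK, against 0.413 ± 0.268 in WT, and 0.567 ± 0.142 in TRACK-VAD, against 0.291 ± 0.232 in WT-VAD. Aurka parted the genotypes on chow, and Aurkb and Bub1b overlapped on both diets. Bub1, the checkpoint partner of Bub1b, was listed at 0.125, 0.0928, 0.133 and 0.172 in TRACK, against 0, 0.0362 and 0.0136 in WT, and at 0.0657, 0.363, 0.0959 and 0.585 in TRACK-VAD, against 0.0314, 0.121 and 0 in WT-VAD. The authors' deposited table listed 3 of these genes as higher on both diets, with log2 fold changes in TRACK over WT and in TRACK-VAD over WT-VAD of 1.14 (adjusted p = 0.00165) and 0.76 (adjusted p = 0.0455) for Aurkb, 0.84 (0.0401) and 0.89 (0.0244) for Bub1, and 0.84 (0.0135) and 1.02 (0.00222) for Bub1b. For Aurkb in TRACK-VAD over WT-VAD the FPKM pointed the other way (-0.24 ± 0.33, limma adjusted p = 0.644). Averaged over diets, limma called Aurka (0.50 ± 0.15, adjusted p = 0.0194), Bub1 (1.07 ± 0.31, adjusted p = 0.0181) and Bub1b (0.75 ± 0.27, adjusted p = 0.0493). The call of Bub1b was lost in 13 of 17 alternatives, with values of 0.60 to 0.97, and all but WT 3, TRACK-VAD 3 and WT-VAD 1 of the 14 libraries ended it when left out. Ccnb1, the main mitotic B cyclin, had a log2 difference of 0.49 ± 0.31 in that average (adjusted p = 0.243). Its levels averaged 0.287 ± 0.121 scaled FPKM in TRACK, against 0.155 ± 0.0623 in WT, and 0.234 ± 0.207 in TRACK-VAD, against 0.112 ± 0.0170 in WT-VAD.

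Among the genes of spindle, chromosome and mitotic exit, Ube2c was the steadiest. Ube2c is the ubiquitin-conjugating enzyme that works with the anaphase-promoting complex (chr2:164769898-164778822, plus strand). It had 0.794, 0.953, 0.835 and 0.875 scaled FPKM in TRACK, against 0.323, 0.163 and 0.303 in WT. It had 0.779, 0.924, 0.660 and 0.936 in TRACK-VAD, against 0.257, 0.136 and 0.336 in WT-VAD. The lowest transgenic library thus lay well above the highest wild type library. It rose by 1.44 ± 0.23 in TRACK over WT (limma at the 0.1 FPKM filter, adjusted p = 0.00134) and by 1.46 ± 0.23 in TRACK-VAD over WT-VAD (adjusted p = 0.00155), and both calls were kept in all 19 alternatives. Its locus overlaps Tnnc2 on the opposite strand.

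Birc5, the survivin of the chromosomal passenger complex (chr11:117849251-117855743, plus strand), had 0.830, 1.19, 1.01 and 1.11 scaled FPKM in TRACK, against 0.520, 0.534 and 0.323 in WT. It had 0.706, 0.990, 0.872 and 1.36 in TRACK-VAD, against 0.518, 0.466 and 0.493 in WT-VAD. Transgenic and wild type libraries did not overlap. At the 0.1 FPKM filter the log2 difference in TRACK over WT was 1.03 ± 0.22 (limma, adjusted p = 0.00677), and in TRACK-VAD over WT-VAD 0.84 ± 0.22 (adjusted p = 0.0183). The call on the deficient diet was lost without WT-VAD 2 (0.80) or WT-VAD 3 (0.84). At the 1 FPKM filter the differences were 0.48 ± 0.12 (adjusted p = 0.0137) and 0.40 ± 0.12 (adjusted p = 0.0284); the call on chow was lost without WT 3 (0.41), and the call on the deficient diet without TRACK-VAD 2 (0.39), TRACK-VAD 4 (0.31), WT-VAD 1 (0.41), WT-VAD 2 (0.39) or WT-VAD 3 (0.40).

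Top2a, the topoisomerase that untangles sister chromosomes (chr11:98992943-99024189, minus strand), had 0.454, 1.69, 1.16 and 0.790 scaled FPKM in TRACK, against 0.139, 0.377 and 0.284 in WT. It had 0.607, 1.18, 0.493 and 0.788 in TRACK-VAD, against 0.329, 0.329 and 0.227 in WT-VAD. Again no transgenic library reached down to a wild type library, with TRACK 1 the nearest. It rose on chow (1.54 ± 0.38 at the 0.1 FPKM filter, limma adjusted p = 0.0151; 0.64 ± 0.18 at the 1 FPKM filter, adjusted p = 0.0305) and was not called on the deficient diet (1.08 ± 0.38, adjusted p = 0.0591). At the 0.1 FPKM filter the call on chow was lost without WT 1 (1.26), and at the 1 FPKM filter without WT 1 (0.57), WT 3 (0.65), TRACK 2 (0.49) or TRACK 3 (0.60). Unlike limma, the authors' deposited table called Top2a in TRACK-VAD over WT-VAD, as higher (1.04, adjusted p = 0.00253).

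Tpx2, which builds the spindle and activates Aurora A, had 0.381, 0.977, 0.407 and 0.680 scaled FPKM in TRACK, against 0.0685, 0.317 and 0.129 in WT. It had 0.519, 0.395, 0.488 and 1.02 in TRACK-VAD, against 0.206, 0.155 and 0.112 in WT-VAD. Mki67, the gene of the proliferation antigen Ki-67, had 0.193, 0.319, 0.394 and 0.274 in TRACK, against 0.0549, 0.123 and 0.0801 in WT, and 0.217, 0.445, 0.182 and 0.304 in TRACK-VAD, against 0.0967, 0.0311 and 0.0503 in WT-VAD. In both genes the 8 transgenic libraries all exceeded the 6 wild type libraries, at levels that stayed at or near 1 FPKM or less. Tpx2 rose by 1.42 ± 0.37 in TRACK over WT (limma at the 0.1 FPKM filter, adjusted p = 0.0214) and by 1.39 ± 0.37 in TRACK-VAD over WT-VAD (adjusted p = 0.0207). Mki67 rose by 1.08 ± 0.28 (adjusted p = 0.0189) and by 1.25 ± 0.28 (adjusted p = 0.00864). Left out singly, WT 1, WT 3 and TRACK 2 ended the chow calls of both genes (Tpx2 1.12, 1.34 and 1.19; Mki67 0.95, 1.06 and 1.04), TRACK 4 that of Tpx2 (1.34) and TRACK 3 that of Mki67 (0.96). On the deficient diet, WT-VAD 2 (1.39) or WT-VAD 3 (1.26) left out ended the call of Tpx2.

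Cdc20, the activator of the anaphase-promoting complex, had 0.830, 1.21, 1.71 and 1.79 scaled FPKM in TRACK, against 0.282, 0.638 and 0.842 in WT, so TRACK 1 fell just below the highest WT library. It had 1.23, 1.49, 1.08 and 1.30 in TRACK-VAD, against 1.01, 0.604 and 0.308 in WT-VAD, without overlap. It rose on chow (1.15 ± 0.36 at the 0.1 FPKM filter, limma adjusted p = 0.0471; 0.58 ± 0.18 at the 1 FPKM filter, adjusted p = 0.0403). The call was lost when WT 1 (0.78 at the 0.1 FPKM filter), WT 2 (1.25), TRACK 2 (1.19), TRACK 3 (1.04) or TRACK 4 (1.02) was left out, and with the unchanged difference of 1.15 when TRACK-VAD 1, TRACK-VAD 3, TRACK-VAD 4 or WT-VAD 2 was. Leaving out WT 3 (0.70) also ended it at the 1 FPKM filter. In TRACK-VAD over WT-VAD limma did not call Cdc20 at that filter (0.49 ± 0.18, adjusted p = 0.0664). There the authors' deposited table listed it as higher (1.16, adjusted p = 0.000142). Cdc20 shares its locus with Elovl1 on the opposite strand. Kif11, the motor that parts the spindle poles, averaged 0.290 ± 0.0854 scaled FPKM in TRACK, against 0.152 ± 0.0351 in WT, and 0.30 ± 0.078 in TRACK-VAD, against 0.144 ± 0.0570 in WT-VAD, and was called by limma in the average over diets (0.67 ± 0.17, adjusted p = 0.0101) and not on a single diet. The authors' deposited table listed Kif11 as higher in TRACK over WT (0.71, adjusted p = 0.0419) and in TRACK-VAD over WT-VAD (0.77, adjusted p = 0.0227). Nusap1, a spindle microtubule protein with the highest mean over all libraries in this group, did not share the pattern, with 1.83 ± 0.828 in TRACK, against 1.37 ± 0.274 in WT, and 1.24 ± 0.444 in TRACK-VAD, against 1.36 ± 0.165 in WT-VAD. Neither difference of Nusap1 was called, and the locus overlaps Oip5 on the opposite strand.

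**Figure D3:**
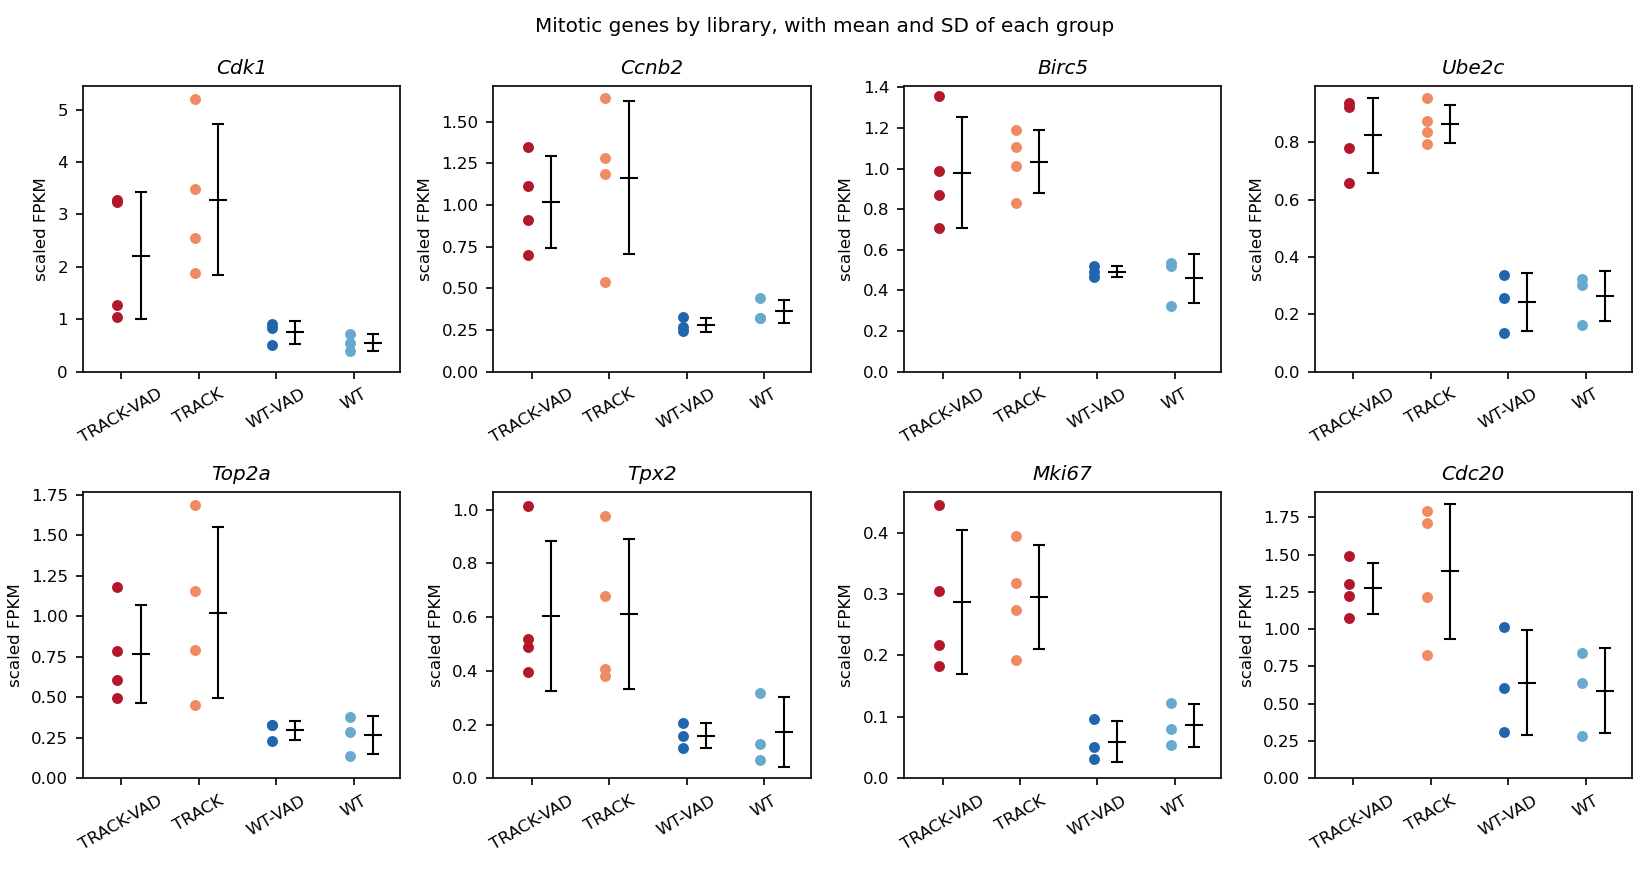
Scaled FPKM of 8 mitotic genes, 1 point per library, with the mean and SD of each group as a bar beside the points (n = 4 TRACK-VAD, 4 TRACK, 3 WT-VAD, 3 WT). In 7 of the 8 panels every transgenic library lies above every wild type library, and in the Cdc20 panel the groups overlap.

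Those 7 genes, Cdk1, Ccnb2, Ube2c, Birc5, Tpx2, Top2a and Mki67, were the members in which all 8 transgenic libraries exceeded all 6 wild type libraries, and in 0 of the 39 was the order turned round. Over all 15178 genes at the 0.1 FPKM filter, 7.33% were higher without overlap and 5.72% lower. On chow alone 17 of 39 were higher and 1 lower without overlap, where 19.8% and 15.7% of genes were. On the deficient diet 13 of 39 were higher and 0 lower, where 15.4% and 11.8% were. In bulk cortex, fewer cells of a type and less RNA per cell cannot be told apart.

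Promoters of the mitotic genes are shown because these genes differed together. Genes of G2 and mitosis are known to be held down in resting cells by the DREAM complex, which in mouse and human binds a CHR element, TTTGAA, often placed near CCAAT boxes of NF-Y. RefSeq promoters on GRCm38.p6 (250 bases before to 50 after a start site) were at hand for 32 of the 39 genes, 35 promoters in all. Below, TTTGAA and CCAAT on either strand (TTCAAA and ATTGG on the other) are in capitals, in 200-base stretches from 150 bases before to 50 after the start, printed in the direction of the gene. Cdk1 lies at chr10:69352863-69353062 on the minus strand, Ccnb2 at chr9:70421505-70421704 on the minus strand, Ube2c at chr2:164769779-164769978 on the plus strand, Mki67 at chr7:135716330-135716529 on the minus strand and Top2a at chr11:99024140-99024339 on the minus strand. Birc5, which also differed, lies at chr11:117849087-117849286 on the plus strand, and Cdkn1b, a CDK inhibitor that was not called, at chr6:134920251-134920450 on the plus strand; these were chosen for display after the values were seen.
Cdk1: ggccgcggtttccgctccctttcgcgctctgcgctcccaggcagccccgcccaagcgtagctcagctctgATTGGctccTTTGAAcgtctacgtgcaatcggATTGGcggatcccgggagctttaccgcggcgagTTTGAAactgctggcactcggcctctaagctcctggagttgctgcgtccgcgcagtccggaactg
Ccnb2: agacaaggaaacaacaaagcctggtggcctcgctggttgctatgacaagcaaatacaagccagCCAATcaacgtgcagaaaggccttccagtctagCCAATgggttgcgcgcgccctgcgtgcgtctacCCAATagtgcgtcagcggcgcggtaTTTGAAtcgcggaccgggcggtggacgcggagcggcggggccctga
Ube2c: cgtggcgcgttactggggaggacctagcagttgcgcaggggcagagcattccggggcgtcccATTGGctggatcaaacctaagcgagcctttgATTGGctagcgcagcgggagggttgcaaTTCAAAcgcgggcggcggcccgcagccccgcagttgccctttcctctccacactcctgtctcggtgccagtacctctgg
Mki67: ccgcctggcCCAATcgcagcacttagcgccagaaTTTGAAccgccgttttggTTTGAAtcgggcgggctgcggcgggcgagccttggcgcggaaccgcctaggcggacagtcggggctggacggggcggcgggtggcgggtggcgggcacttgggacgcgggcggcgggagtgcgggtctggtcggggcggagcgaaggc
Top2a: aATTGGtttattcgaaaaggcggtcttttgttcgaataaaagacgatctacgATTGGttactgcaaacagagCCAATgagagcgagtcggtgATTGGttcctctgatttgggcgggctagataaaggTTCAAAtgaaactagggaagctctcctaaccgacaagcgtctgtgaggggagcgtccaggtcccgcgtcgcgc
Birc5: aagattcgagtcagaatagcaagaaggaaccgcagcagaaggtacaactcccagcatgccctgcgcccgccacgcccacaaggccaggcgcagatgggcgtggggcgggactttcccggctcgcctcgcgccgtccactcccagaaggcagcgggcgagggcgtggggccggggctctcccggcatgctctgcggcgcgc
Cdkn1b: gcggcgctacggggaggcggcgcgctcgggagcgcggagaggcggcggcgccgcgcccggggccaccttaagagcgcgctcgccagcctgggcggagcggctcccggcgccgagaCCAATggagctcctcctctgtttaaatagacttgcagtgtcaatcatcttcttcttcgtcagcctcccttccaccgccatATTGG

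In the full window, TTTGAA on either strand occurred in 10 of 14 promoters of mitotic genes (71.4%) and in 1 of 21 promoters of the other members (4.76%, Mcm2), and in 17.9% of all 32851 promoters. The 4 mitotic promoters without it were those of Birc5, Bub1, Ccnb1 and Nusap1. CCAAT occurred in 85.7% of mitotic promoters, 61.9% of the others and 37.4% of all, and both words together in 71.4%, 4.76% and 6.95%. The E2F word TTNGCGC was in 21.4% of mitotic promoters, 23.8% of the others and 6.36% of all. The core of the hypoxia response element, ACGTG or GCGTG on either strand, was in 78.6%, 66.7% and 43.8%. These are matches of letters and show no binding.

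The replication genes were expressed at moderate levels. The 6 subunits of the MCM helicase averaged 1.24 to 7.41 scaled FPKM over the groups, and limma called 0 of 6 on either diet, with 1 of 6 at an unadjusted p of 0.05 or less on chow and 2 of 6 on the deficient diet. Over all 12251 genes, 8.81% rose and 8.2% fell on chow, and 11.3% rose and 10.8% fell on the deficient diet. In all 6 the limma difference was above 0 on both diets, and 6249 of 12251 genes were above 0 on chow. The median over all genes was 0.0067 on chow and -0.0056 on the deficient diet. The authors' deposited table put Mcm7 at -0.0094 in TRACK over WT. Mcm3 had 2.15, 1.88, 2.24 and 2.65 scaled FPKM in TRACK, against 1.86, 1.62 and 1.41 in WT, and 2.04, 2.74, 1.80 and 2.04 in TRACK-VAD, against 1.76, 1.41 and 1.53 in WT-VAD. The groups did not overlap within a diet, by narrow margins. Averaged over diets Mcm3 rose (0.29 ± 0.08 at the 1 FPKM filter, limma adjusted p = 0.0144), a call that was lost with lane as a term (0.27, adjusted p = 0.115). Mcm6, the most abundant of the 6, averaged 7.15 ± 0.972 in TRACK, against 6.19 ± 0.709 in WT, and was not called (0.18 ± 0.13, adjusted p = 0.359). Mcm2, Mcm4, Mcm5 and Mcm7 had differences of 0.05, 0.15, 0.22 and 0.03 on chow and 0.02, 0.19, 0.25 and 0.35 on the deficient diet, and limma called none. The authors' deposited table listed Mcm3 as higher on both diets, with log2 fold changes of 0.56 in TRACK over WT (adjusted p = 0.00459) and 0.53 in TRACK-VAD over WT-VAD (adjusted p = 0.00844), and Mcm7 in TRACK-VAD over WT-VAD (0.40, adjusted p = 0.0163).

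Nucleotide supply gave differences in both directions. Rrm1, the large subunit of ribonucleotide reductase, had 6.49, 6.61, 5.22 and 6.19 scaled FPKM in TRACK-VAD, against 3.68, 5.10 and 4.13 in WT-VAD, and 6.19, 6.71, 6.47 and 6.64 in TRACK, against 6.78, 6.13 and 6.00 in WT. The WT-VAD libraries were thus the low ones, and all 3 were read in lane 6. It rose in TRACK-VAD over WT-VAD (0.43 ± 0.10, limma adjusted p = 0.0102) and not in TRACK over WT (0.04 ± 0.10, adjusted p = 0.814). With lane as a term, which sets TRACK-VAD 4 alone against WT-VAD, the difference was 0.45. The call was lost in a fit of the compared groups alone (limma, adjusted p = 0.0854). At the 0.1 FPKM filter the difference of 0.51 lost its call without WT-VAD 1 (0.40). The average over diets (0.24 ± 0.07, adjusted p = 0.0194) lost its call without WT 3 (0.22) or WT-VAD 1 (0.19). In WT-VAD over WT it differed by -0.47 ± 0.11, which was not called (adjusted p = 0.0872), and the test of the difference between the diets gave 0.39 ± 0.14 (adjusted p = 0.542).

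Tyms, thymidylate synthase, was the member that fell. It had 23.6, 24.2, 21 and 21.9 scaled FPKM in TRACK, against 27.8, 28.2 and 28.1 in WT, without overlap. It had 22.7, 18.3, 22.3 and 20.9 in TRACK-VAD, against 22.1, 29.5 and 24.7 in WT-VAD, with overlap. The differences of -0.30 ± 0.10 in TRACK over WT (limma at the 1 FPKM filter, adjusted p = 0.0559) and -0.26 ± 0.10 in TRACK-VAD over WT-VAD (adjusted p = 0.0800) were not called, and their average was (-0.28 ± 0.07, adjusted p = 0.00839). Without scaling, where the median of all genes lay 0.16 higher on chow and 0.18 higher on the deficient diet, that average was -0.09 (adjusted p = 0.302), and with lane as a term it was -0.28 (adjusted p = 0.0612). The authors' deposited table gave Tyms a log2 fold change of -0.38 ± 0.11 in TRACK over WT (adjusted p = 0.00362), and the same in TRACK-VAD over WT-VAD (adjusted p = 0.00409). A named pseudogene, Tyms-ps, exists in the annotation.

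Pcna, the sliding clamp of DNA polymerase, averaged 12.6 ± 0.899 scaled FPKM in TRACK, against 13.2 ± 0.770 in WT, and 13.6 ± 2.37 in TRACK-VAD, against 10.9 ± 0.892 in WT-VAD. Rrm2, the small subunit that cycling cells make in S phase, averaged 2.89 ± 0.706 in TRACK, against 1.95 ± 0.294 in WT. On the deficient diet Rrm2 averaged 2.04 ± 0.527 in TRACK-VAD, against 1.65 ± 0.136 in WT-VAD. Tk1, a thymidine kinase of S phase, averaged 3.40 ± 0.566 in TRACK, against 2.80 ± 0.563 in WT, and 2.54 ± 0.502 in TRACK-VAD, against 3.38 ± 0.358 in WT-VAD. Groups overlapped on both diets for each of these genes, and limma called none of the 3 in any comparison. The authors' deposited table listed Rrm2 as higher in TRACK over WT (0.53 ± 0.20, adjusted p = 0.0399).

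Ccnd1, Ccnd3 and Cdk4 were abundant, and limma called none of the 5 G1 genes in any comparison. Ccnd3, the most abundant member, stood at 88.6, 118, 113 and 103 scaled FPKM in TRACK, against 93.6, 90.0 and 91.6 in WT, and at 93.1, 84.8, 100 and 131 in TRACK-VAD, against 115, 107 and 102 in WT-VAD. Cdk4 averaged 85.9 ± 11.7 in TRACK, against 97.2 ± 11.5 in WT, and 97.1 ± 23.8 in TRACK-VAD, against 82.0 ± 3.96 in WT-VAD. Both overlapped between genotypes on both diets, and the 95% interval of the chow difference ran from -0.09 to 0.47 for Ccnd3 and from -0.53 to 0.17 for Cdk4. Both loci overlap a gene on the opposite strand, Bysl at Ccnd3 and Tspan31 at Cdk4.

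Ccnd1, the D cyclin that growth signals induce, pointed in different directions on the diets. It had 56.5, 60.3, 51.8 and 62.4 scaled FPKM in TRACK, against 39.5, 37.3 and 58.3 in WT, and 44.3, 38.8, 59.0 and 46.1 in TRACK-VAD, against 64.9, 53.2 and 61.6 in WT-VAD. On each diet 1 library stood among those of the other genotype, WT 3 on chow and TRACK-VAD 3 on the deficient diet. The differences, 0.38 ± 0.16 in TRACK over WT (limma, adjusted p = 0.115) and -0.35 ± 0.16 in TRACK-VAD over WT-VAD (adjusted p = 0.122), were not called, nor was the difference between them (-0.73 ± 0.22, adjusted p = 0.437). Cdk6, the other G1 kinase, averaged 2.96 to 3.46 over the groups.

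For Ccnd2, a D cyclin, the deposited FPKM and the authors' deposited table did not give the same picture. The FPKM put TRACK at 2.51, 2.95, 2.47 and 8.43 scaled FPKM, against 31.1, 2.76 and 1.93 in WT. On the deficient diet TRACK-VAD had 2.48, 3.69, 7.95 and 3.17, against 8.92, 1.66 and 2.47 in WT-VAD. Single libraries thus stood far above the rest in all 4 groups, and limma gave -0.61 ± 0.72 on chow (adjusted p = 0.590). The authors' deposited table listed Ccnd2 as higher in TRACK over WT (log2 fold change 0.68 ± 0.17, adjusted p = 0.000587) and in TRACK-VAD over WT-VAD (0.52 ± 0.17, adjusted p = 0.0102).

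At the G1/S step, Ccne1, an E cyclin, had 0.290, 0.319, 0.390 and 0.228 scaled FPKM in TRACK, against 0.0750, 0.199 and 0.133 in WT, without overlap. It had 0.536, 0.369, 0.604 and 0.346 in TRACK-VAD, against 0.265, 0.390 and 0.276 in WT-VAD, with overlap. It rose on chow (0.81 ± 0.25 at the 0.1 FPKM filter, limma adjusted p = 0.0422) and was not called on the deficient diet (0.44 ± 0.25, adjusted p = 0.220). Its call was lost with each of 7 libraries left out: WT 1 (0.61), WT 3 (0.82), TRACK 1 (0.82), TRACK 2 (0.79), TRACK 3 (0.71), WT-VAD 1 and WT-VAD 3 (0.81 each). Ccne2, the other E cyclin, averaged 0.915 ± 0.267 in TRACK, against 0.658 ± 0.404 in WT. Cdk2, their kinase, averaged 5.07 ± 0.434 in TRACK, against 4.21 ± 0.171 in WT, and E2f1, a transcription factor of S phase genes, 1.45 ± 0.217 in TRACK, against 0.953 ± 0.253 in WT. On the deficient diet Ccne2 averaged 0.974 ± 0.446 in TRACK-VAD, against 0.669 ± 0.139 in WT-VAD. In the same groups Cdk2 averaged 5.26 ± 1.20, against 4.50 ± 0.592, and E2f1 1.12 ± 0.286, against 1.17 ± 0.167. Neither Ccne2, Cdk2 nor E2f1 was called.

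**Figure D4:**
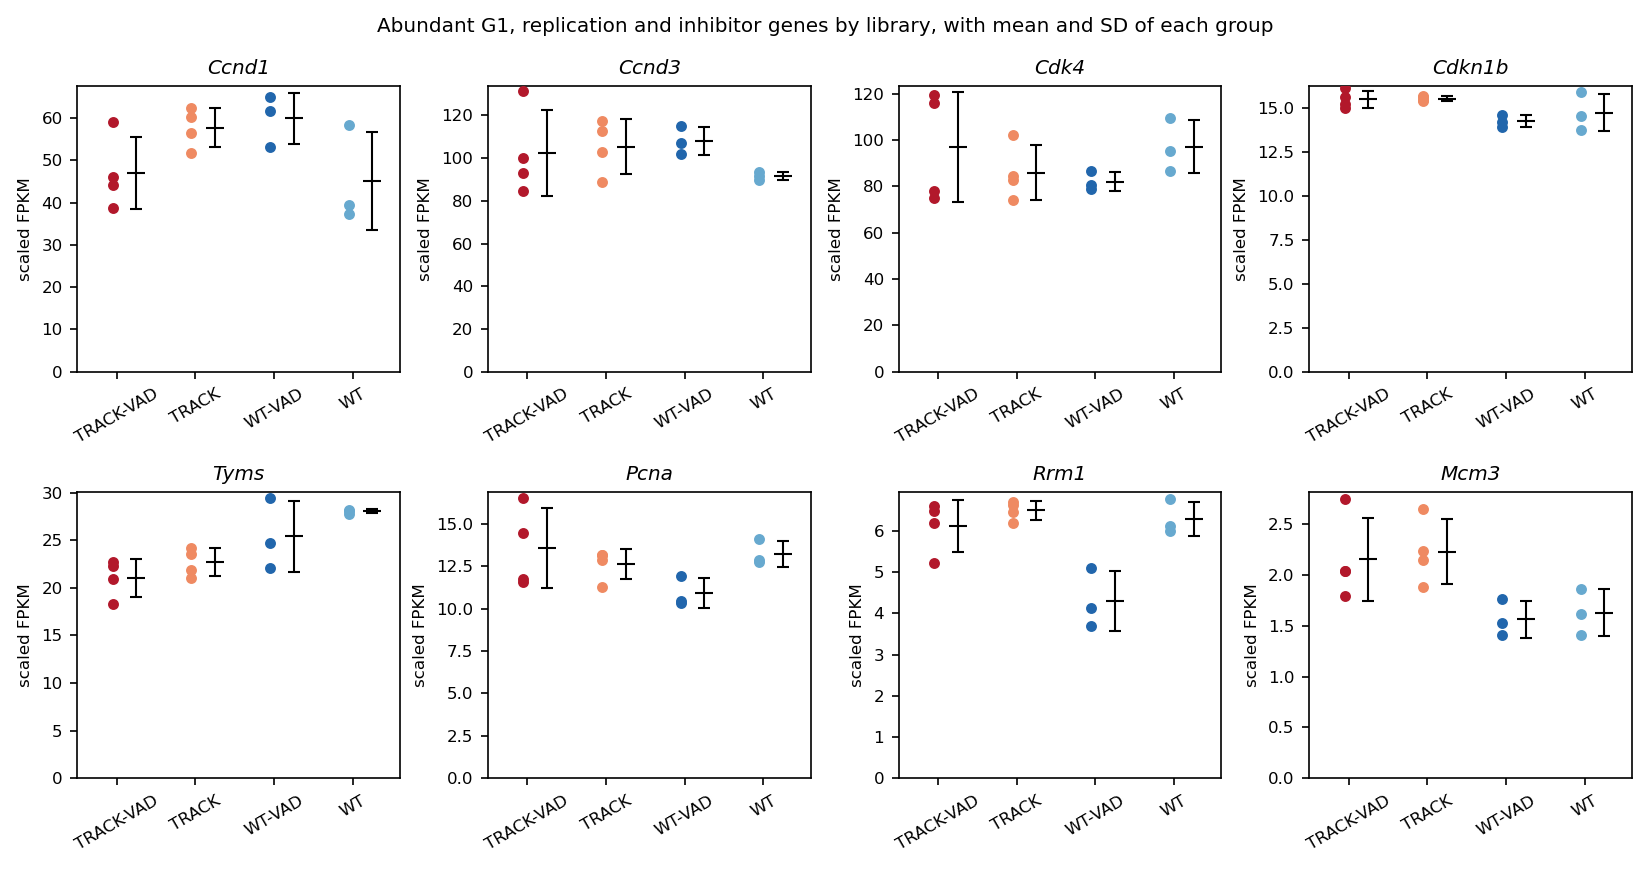
Scaled FPKM of 8 G1, replication and inhibitor genes, 1 point per library, with the mean and SD of each group as a bar beside the points (n = 4 TRACK-VAD, 4 TRACK, 3 WT-VAD, 3 WT). Rrm1 is low in the 3 WT-VAD libraries, Tyms is high in the 3 WT libraries and highest in WT-VAD 2, and Ccnd1, Ccnd3 and Cdk4 overlap between genotypes.

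The CDK inhibitors in the list were level across groups. Cdkn1b, which encodes p27 and holds Cdk2 in resting cells, stood at 15, 16.1, 15.6 and 15.2 scaled FPKM in TRACK-VAD, against 14.2, 13.9 and 14.6 in WT-VAD, and at 15.6, 15.4, 15.4 and 15.7 in TRACK, against 13.8, 15.9 and 14.6 in WT. The deficient diet groups did not overlap, by a narrow margin, and no difference was called (0.11 ± 0.06, limma adjusted p = 0.218 on the deficient diet; 0.07 ± 0.06, adjusted p = 0.458 on chow). Cdkn2c, which encodes p18 and holds Cdk4 and Cdk6, averaged 14.3 ± 1.70 in TRACK-VAD, 14.8 ± 1.11 in TRACK, 13.5 ± 1.30 in WT-VAD and 13.1 ± 1.79 in WT.

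Outside the list of 39, Cdkn1a, which encodes p21 and is the inhibitor that p53 induces, had 39.4, 39.1, 47.2 and 36.6 scaled FPKM in TRACK, against 6.89, 8.70 and 7.53 in WT. It had 28.9, 48.4, 17.1 and 21.2 in TRACK-VAD, against 5.72, 5.03 and 5.18 in WT-VAD. The mitotic genes and this inhibitor of division were therefore both higher in the same transgenic libraries (Cdkn1a 2.25 ± 0.25 on chow and 2.14 ± 0.25 on the deficient diet, limma adjusted p = 5.82e-05 and 0.000150). Of 16 p53 target genes, all tested at the 1 FPKM filter, 6 rose and 0 fell on chow, and 6 rose and 1 fell on the deficient diet, where 8.81% of all genes rose and 8.2% fell on chow and 11.3% rose and 10.8% fell on the deficient diet. Phlda3 (1.30 and 1.09), Btg2 (1.25 and 1.22) and Plk2 (0.99 and 0.82) were among the risers on both. With lane as a term, which sets TRACK-VAD 4 alone against WT-VAD, the deficient diet differences were 0.88 for Phlda3, 0.94 for Btg2 and 0.68 for Plk2. With only the compared groups the calls of Phlda3 (adjusted p = 0.0729) and Plk2 (adjusted p = 0.0746) were lost, and that of Plk2 also without WT-VAD 2 (0.76). Of the other CDK inhibitors 1 of 4 tested rose on each diet, Cdkn1a itself.

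Of 42 other mitosis genes, 41 entered the 0.1 FPKM fit, where 7 rose on chow, 10 on the deficient diet and 20 in the average over diets, and 0 fell. Over all genes in that fit, 9.22% rose on chow, 11.4% on the deficient diet and 18.9% in the average. Named among them were Nuf2 and Ndc80 of the kinetochore (1.79 ± 0.34 and 1.19 ± 0.25 on chow) and Ckap2 of the spindle (1.26 ± 0.30 on chow and 1.31 ± 0.30 on the deficient diet). At the 1 FPKM filter 1 of 20 rose on chow, where 8.81% of all genes did, and 5 of 20 on the deficient diet, where 11.3% did, with Cdca3 in both (0.62 each; 0.53 on chow and not called without WT 1). Among other replication genes, Mcm10, which loads onto the helicase, had 3.24, 4.06, 2.54 and 3.70 scaled FPKM in TRACK, against 0.921, 1.17 and 1.28 in WT, and 2.76, 1.47, 3.32 and 3.99 in TRACK-VAD, against 2.75, 3.41 and 3.69 in WT-VAD, so the 3 WT libraries and TRACK-VAD 2 were the low ones. It rose in TRACK over WT (1.04 ± 0.20 at the 1 FPKM filter, limma adjusted p = 0.00394) and, at the 0.1 FPKM filter, in WT-VAD over WT (1.47 ± 0.29, adjusted p = 0.0489), where diet and lane cannot be told apart. Of 16 genes of the RB, E2F and DREAM group, 14 were tested at the 1 FPKM filter, with 0 called on chow (2 at an unadjusted p of 0.05 or less), and on the deficient diet Lin37 rose (0.48 ± 0.16, a call lost in 15 of 24 alternatives, with values of 0.22 to 0.67) and Lin52 fell (-0.54 ± 0.12). Of 7 tested genes of DNA damage checkpoint and repair, Timeless rose on both diets (0.76 and 0.77), each call lost in 6 of 24 alternatives (0.64 to 1.26 on chow and 0.64 to 1.18 on the deficient diet).

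The diet moved none of the genes past the threshold. In WT-VAD over WT, limma called 0 of the 27 tested genes (2 at an unadjusted p of 0.05 or less), where 0.514% of all genes were called. In TRACK-VAD over TRACK it called 0 of 27 (2 at an unadjusted p of 0.05 or less), where 0.155% were called. For the difference between diets in the genotype effect it called 0 of 27 (3 at an unadjusted p of 0.05 or less), where 0.00816% were called. At the 0.1 FPKM filter the counts were 0 of 39 in each of the 3 comparisons (4, 3 and 4 at an unadjusted p of 0.05 or less), where 0.428%, 0.0659% and 0.00659% of all genes were called. The authors' deposited table called 0 of 34 in WT-VAD over WT, where 2.41% of its genes were called, and 0 of 37 in TRACK-VAD over TRACK, where 1.35% were. Among the mitotic genes Plk1 had the lowest p in TRACK-VAD over TRACK (-1.02 ± 0.33, adjusted p = 0.361).

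Seen library by library, the 2 mitotic role groups parted the genotypes and the G1 group did not. The mean log2 deviation of the 9 mitotic cyclins and kinases from their means over 14 libraries was 0.22 to 0.85 in TRACK, against -0.73 to -0.46 in WT, and -0.31 to 0.54 in TRACK-VAD, against -0.62 to -0.33 in WT-VAD. TRACK-VAD 3 was the low transgenic library, close to the wild type ones. For the 8 genes of spindle, chromosome and mitotic exit it was 0.18 to 0.62 in TRACK, against -0.80 to -0.41 in WT, and 0.12 to 0.60 in TRACK-VAD, against -0.69 to -0.36 in WT-VAD. The 5 G1 genes ranged from -0.17 to 0.27 in TRACK, against -0.25 to 0.47 in WT. At the 0.1 FPKM filter, leaving out TRACK-VAD 3 gave 13 called genes on the deficient diet (12 higher and 1 lower) in place of 7, leaving out TRACK-VAD 2 gave 6, and leaving out WT-VAD 2 gave 4. On chow, leaving out WT 1 gave 4 in place of 11, and leaving out TRACK 2 gave 7.

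**Figure D5:**
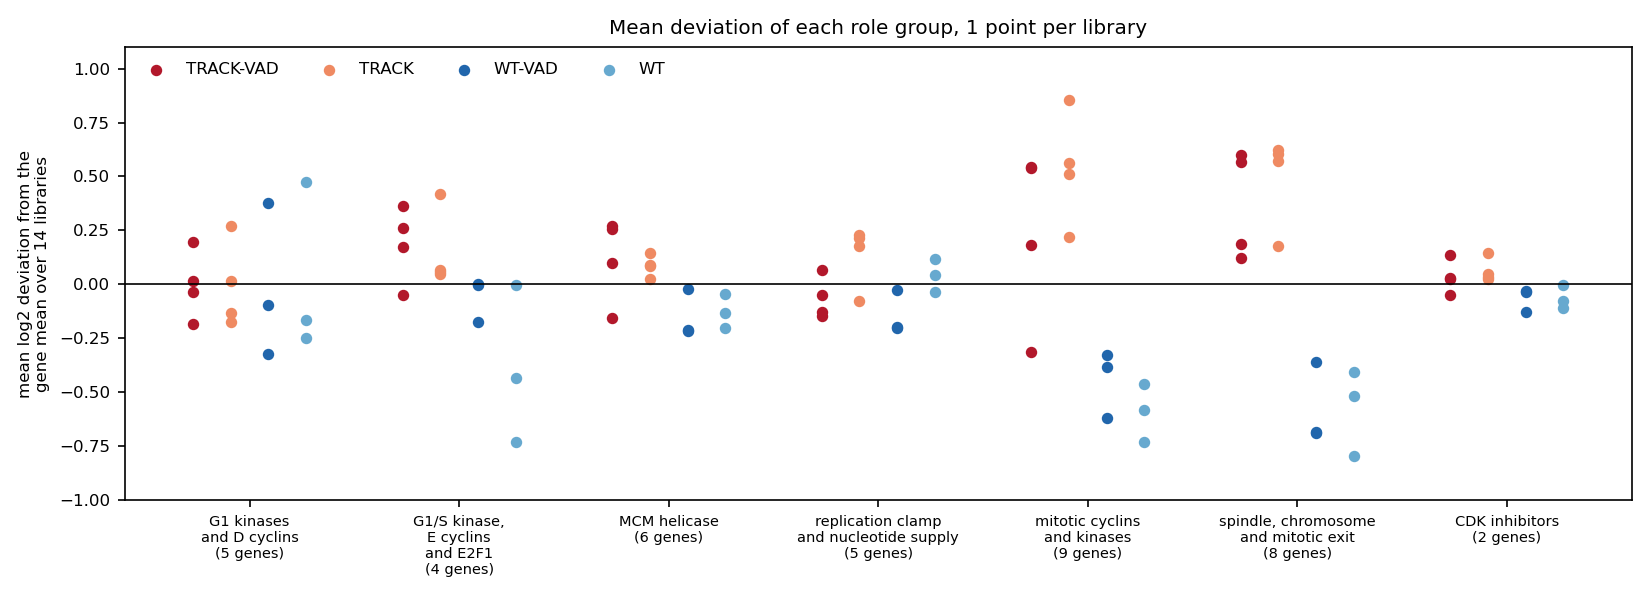
Mean log2 deviation of each role group from its genes' means over 14 libraries, 1 point per library, coloured by group. In the mitotic groups the TRACK libraries lie at 0.18 or above and all wild type libraries at -0.33 or below, with TRACK-VAD 3 at -0.31 in the kinase group.

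Markers of other cells differed between the same groups. Over all genes at the 1 FPKM filter, 8.81% rose and 8.2% fell on chow, and 11.3% rose and 10.8% fell on the deficient diet. Of 10 macrophage and dendritic cell markers 9 rose on each diet, and their summed level was 397 to 507 scaled FPKM in TRACK against 190 to 214 in WT, and 524 to 1335 in TRACK-VAD against 177 to 274 in WT-VAD. Of 11 lymphocyte and plasma cell markers 7 were tested, 4 rose on chow and 5 on the deficient diet, and the sum was 169 to 387 in TRACK against 14.6 to 23.2 in WT, and 54.3 to 261 in TRACK-VAD against 25.3 to 47.1 in WT-VAD. Of 8 endothelial markers 6 rose on each diet (sums 173 to 197 in TRACK against 108 to 131 in WT, and 169 to 224 in TRACK-VAD against 110 to 121 in WT-VAD). Of 7 fibroblast and mural markers 2 rose on chow and 3 on the deficient diet (sums 71.9 to 100.3 in TRACK against 47.4 to 62.0 in WT, and 70.3 to 113 in TRACK-VAD against 41.6 to 58.4 in WT-VAD). Of 8 proximal tubule markers 5 fell on each diet (sums 1446 to 1789 in TRACK against 3111 to 4261 in WT, and 722 to 2043 in TRACK-VAD against 2844 to 3456 in WT-VAD). Of 5 tested injured tubule markers 2 rose on chow and all 5 on the deficient diet (sums 569 to 839 in TRACK against 451 to 592 in WT, and 496 to 8255 in TRACK-VAD against 298 to 318 in WT-VAD). Sums of 5 erythroid markers were 998, 1168.5, 281 and 385 in TRACK-VAD 1 to 4, against 304 to 402 in WT-VAD. On chow they were 230 to 595 in TRACK, against 402 to 485 in WT. Podocyte sums were 107 to 122 in TRACK against 96.0 to 110 in WT, and 98.8 to 113 in TRACK-VAD against 75.4 to 88.0 in WT-VAD. Sums of loop of Henle and distal tubule markers, and of collecting duct markers, overlapped between genotypes on both diets. No list had a marker at 0 in every library of a group. The part of these cells in the mitotic differences was not tested. In TRACK-VAD 3 the macrophage sum was 580 and the proximal tubule sum 2043, the highest proximal tubule sum of a transgenic library.

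Among 12224 other genes, those most like the mean profile of the 23 members of at least 1 FPKM on average were sought, by Pearson correlation over the 14 libraries. That profile left out most mitotic genes, among them Ccnb2, Birc5, Top2a, Ube2c, Tpx2 and Mki67. Its own members did not share it evenly. Their r with it was 0.86 for Cdc20, 0.85 for Mcm3 and 0.83 for Cdk1, but 0.09 for Ccnd1, 0.08 for Cdk4, 0.15 for Mcm2 and -0.69 for Tyms. The 5 highest were Shisa4 (r = 0.94), Il7 (0.94), Ptrf (0.93), Fyn (0.92) and Tor4a (0.91). Shisa4 averaged 7.77 scaled FPKM in TRACK-VAD, 9.77 in TRACK, 4.77 in WT-VAD and 5.46 in WT. The points share the 4 groups and their lanes, so the values of r describe these libraries only.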

How the data were processed

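RNA-seq of 14 kidney cortex libraries was read as 51-base single-end reads per the labels' protocols. The authors deposited FPKM per protein-coding locus. Their own deposited comparison tables hold, per the file headers, p-values, log2 fold changes, standard errors and a mean normalized count signal. DESeq 1.32 and mm9 are named, per the submitters' processing notes; which aligner and FPKM program were used is not given in these sources, and 36 of the 39 loci were identical to GENCODE vM21 on GRCm38. Another 6 columns of per-sample values in that file were not used. Libraries were scaled here by an unweighted trimmed mean of log ratios, which drops 30% of the ratios and 5% of the levels at each end. In R 4.3.3, limma 3.58.1 with a mean-variance trend was fitted to log2(scaled FPKM + 1) over 12251 genes with at least 1 FPKM in 3 libraries, less 17 genes listed at 0 in a library although abundant in others, as 4 group means, two-sided; the second fit used 0.1 FPKM, a pseudocount of 0.1 and 15178 genes. The fit was tested on simulated data. Alternatives were other scaling, filters and pseudocounts, only the compared groups, the replicate number, the lane, the authors' deposited table, and each library left out. Figures were drawn with matplotlib 3.10.9.

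The genes, marker lists, pathway lists and tests were chosen with earlier results of these data known. Genes were named where called at the 1 FPKM filter or highest in their role group, with at most 3 of the largest differences per other list and comparison; the remaining members were described with their values in view. The labels speak of 4 mice per cohort; libraries not listed above were not analysed here. FPKM hold no depth, and counting intervals could not be computed. For the list of other replication genes, counts and 1 result are not reported here.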

Additional observations from a re-analysis of the deposited data

Results flagged for a closer look

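Ccnd2 in TRACK was set apart by 1 library. TRACK 4 stood at 8.43 scaled FPKM while TRACK 1 to 3 stood at 2.51, 2.95 and 2.47. Pcna in TRACK also had a library far from the rest, TRACK 1 at 11.3 scaled FPKM, against 12.9, 13.1 and 13.2 in TRACK 2 to 4. These were 2 of 78 sets of 4 libraries examined with Dixon's test, which flags about 1 set in 20 by chance.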

How the results depend on the processing

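No gene called by limma at the 1 FPKM or 0.1 FPKM filter reversed its direction in a setting run. Genes that limma did not call could. In TRACK over WT at the 1 FPKM filter limma gave Ccnd2 -0.61 and Nusap1 0.21. The authors' deposited table gave Ccnd2 0.68, which it called, and Nusap1 -0.31, which it did not. In TRACK-VAD over WT-VAD at the 0.1 FPKM filter limma gave Aurkb -0.24, where that table called it as higher (0.76). The counts for diet and for the difference between diets were 0 in every setting run. The number of called members moved with the filter, the scaling and the tool. For TRACK over WT (5 at the 1 FPKM filter) it was 10 without scaling, 8 without a filter, 2 with a mean of at least 1 FPKM, 11 at the 0.1 FPKM filter and 19 in the authors' deposited table, and 2 to 7 with 1 library left out. For TRACK-VAD over WT-VAD (3) it was 12 without scaling, 5 without a filter, 1 with a mean of at least 1 FPKM, 7 at the 0.1 FPKM filter, 1 with only the compared groups, 0 with lane as a term and 18 in the authors' deposited table, and 2 to 7 with 1 library left out. For the average over diets (8) it was 18 without scaling, 16 without a filter, 5 with a mean of at least 1 FPKM and 18 at the 0.1 FPKM filter, and 7 to 12 with 1 library left out. At the 0.1 FPKM filter itself the counts were 17, 16 and 28 without scaling in place of 11, 7 and 18; on the deficient diet 3 with only the compared groups and 2 with lane as a term; and 4 to 12, 4 to 13 and 16 to 22 with 1 library left out. The changes to this second fit were chosen after seeing the data. At the 1 FPKM filter, 1 library moved a count by over 1.5 times for WT 1 (2), WT 3 (2), TRACK 2 (3) and TRACK 3 (3) on chow, and for TRACK-VAD 3 (7) and TRACK-VAD 4 (5) on the deficient diet. Over all genes, the called number was 2264 (1819 higher) on chow and 3218 (2660 higher) on the deficient diet without scaling, in place of 2084 (1079 higher) and 2707 (1380 higher), 3442 and 568 with only the compared groups, and 221 on the deficient diet with lane as a term. With 1 library left out the 2084 became 1011 (WT 1), 1019 (WT 3), 1253 (TRACK 3) or 1354 (TRACK 2), and the 2707 became 1570 (WT-VAD 2), 1630 (WT-VAD 3), 1635 (WT-VAD 1) or 1754 (TRACK-VAD 1). The deficient diet calls of Cdca3 (0.74), Lin37 (0.37), Lin52 (-0.46) and Timeless (0.81) were lost with lane as a term, and with only the compared groups. Libraries of the same number did not deviate together (19 pairs, r from -0.14 to 0.38), so numbers were not taken as pairs; with the replicate block the called members were 4 in TRACK over WT, 5 in TRACK-VAD over WT-VAD and 8 in the average. The causes of these changes were not tested, except that the lane term rests on TRACK-VAD 4 alone by construction. Absolute depth being unknown, genes near 0.1 FPKM are the least certain.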
